A study of Mus musculus with 2 samples.

Results

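The HoxC cluster is the group of 9 neighbouring homeobox genes on mouse chromosome 15: Hoxc4, Hoxc5, Hoxc6, Hoxc8, Hoxc9, Hoxc10, Hoxc11, Hoxc12 and Hoxc13. All 9 were taken, out of 21938 protein-coding genes annotated on the GRCm38 (mm10) genome. The rule uses no measured value, though earlier results of these data were known when the genes were chosen. With them came every open-chromatin region centred between positions 102900000 and 103040000 of that chromosome, an interval of 140 kb. It holds 28 of the 208674 DNase I peaks of replicate 1 and 28 of the 196593 of replicate 2, and 28 of 186036 and 24 of 181251 hotspots. A peak is a stretch of 150 bp with a signal value, and a hotspot is a region of varying width that DNase I cut more often than its surroundings.

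The measurements come from DNase-seq, in which the enzyme DNase I cuts accessible DNA in nuclei and the cut ends are sequenced. The tissue was limb of mouse embryos of strain B6NCrl at embryonic day 14.5, male and female embryos pooled, with no allele or treatment named. There is 1 group with 2 replicates and no other tissue or stage, so each result is a description of this tissue, with its value in both replicates and the same value over all genes or peaks beside it. The labels call the libraries biological replicates, yet 1 donor identifier stands on both, and separate litters are not named. Forelimb and hindlimb are not told apart in the labels.

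Hox genes encode transcription factors that give cells their position along the body axis. Within a cluster the genes lie in the order in which they are used, from anterior (low numbers) to posterior (high numbers), and all HoxC genes are transcribed in the same direction, from Hoxc13 towards Hoxc4. In the limb the posterior HoxA and HoxD genes are known for patterning the upper limb, the forearm and the digits, and posterior HoxC genes are known for expression in the hindlimb. Hoxc13 is needed for hair and nails, Hoxc8 and Hoxc9 sort spinal motor neurons, and Hoxc6 marks anterior thoracic and forelimb levels. The cluster also holds microRNAs that repress other genes and the long non-coding RNA Hotair, studied for its ties to Polycomb repression.

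Shared peaks, found in both libraries with an overlap of at least 50% of their length, numbered 15, and 7 of them are printed here because they are among the regions the results turn on. They cover the starts of Hoxc13 and a Hoxc6 transcript, strong regions away from a start, and regions with matches to Hox-type letters. Each is the reference sequence of strain C57BL/6J from the RefSeq GRCm38.p6 assembly on the plus strand, which is the direction of HoxC transcription, at the coordinates of replicate 1. Capitals mark matches, on either strand, to the letters searched.
Hoxc13 start, chr15:102920816-102920965: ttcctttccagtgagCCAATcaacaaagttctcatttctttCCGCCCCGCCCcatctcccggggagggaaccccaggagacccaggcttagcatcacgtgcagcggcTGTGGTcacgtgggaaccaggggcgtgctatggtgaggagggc
between Hoxc11 and Hoxc10, chr15:102959996-102960145: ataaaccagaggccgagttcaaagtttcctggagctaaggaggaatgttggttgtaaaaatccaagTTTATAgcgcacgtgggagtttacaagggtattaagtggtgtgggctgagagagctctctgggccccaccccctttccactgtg
between Hoxc9 and Hoxc8, chr15:102987516-102987665: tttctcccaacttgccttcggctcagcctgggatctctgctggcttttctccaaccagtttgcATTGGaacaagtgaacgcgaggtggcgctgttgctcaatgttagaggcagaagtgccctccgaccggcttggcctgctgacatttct
Hoxc6-202 start, chr15:102998056-102998205: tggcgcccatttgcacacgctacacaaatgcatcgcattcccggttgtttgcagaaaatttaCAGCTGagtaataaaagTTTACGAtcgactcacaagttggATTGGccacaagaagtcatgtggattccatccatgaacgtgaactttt
Hoxc6 intron, chr15:102999316-102999465: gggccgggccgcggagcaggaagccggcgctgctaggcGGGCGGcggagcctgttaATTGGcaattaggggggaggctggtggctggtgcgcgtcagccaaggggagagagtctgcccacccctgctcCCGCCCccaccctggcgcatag
Hoxc5 intron, chr15:103014536-103014685: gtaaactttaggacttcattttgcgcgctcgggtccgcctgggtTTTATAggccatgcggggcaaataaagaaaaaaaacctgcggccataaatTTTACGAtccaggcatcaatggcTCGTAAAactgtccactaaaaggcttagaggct
Hoxc4 intron, chr15:103032816-103032965: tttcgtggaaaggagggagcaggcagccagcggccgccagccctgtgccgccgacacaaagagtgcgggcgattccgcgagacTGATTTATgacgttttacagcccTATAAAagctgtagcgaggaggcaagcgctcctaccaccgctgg

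Mature microRNAs of the cluster, 3 of its 4, follow, with RNA letters from RefSeq and the seed, bases 2 to 8, in capitals. They are shown because their host loci had unlike accessibility, described further on. No seed is common to any pair of the 3.
miR-196a-5p: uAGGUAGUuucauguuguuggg
miR-615-5p: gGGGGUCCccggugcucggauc
miR-615-3p: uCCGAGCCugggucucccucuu

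Most of the cluster's open regions ranked above the middle of each library, and Hoxc10 had the strongest. The signal of a peak is the authors' own number, so it is given with its percentile among all peaks of the same replicate. Where a pair of values follows a peak or gene, replicate 1 comes first. The median percentile of the interval's peaks was 72.8 in replicate 1 and 70.1 in replicate 2, and 25 of 28 and 21 of 28 exceeded the list medians of 42 and 31. Shared peaks ran from 47 to 114 in replicate 1 (median 76) and from 28 to 98 in replicate 2 (median 48). Peaks in 1 replicate only ran from 33 to 70 (median 49) and from 25 to 61 (median 40), so the shared and unshared ranges overlapped in both libraries. The raw signal was lower in replicate 2 at 15 of 15 shared peaks, in a list whose median is also lower, and the percentile was lower at 11 of 15. The order of the shared peaks was alike in both lists, with a Spearman's rho of 0.938 over 15 peaks of the same pair of libraries, given as a description. The median difference in percentile was 5.17 and the largest 30.2.

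**Figure D1:**
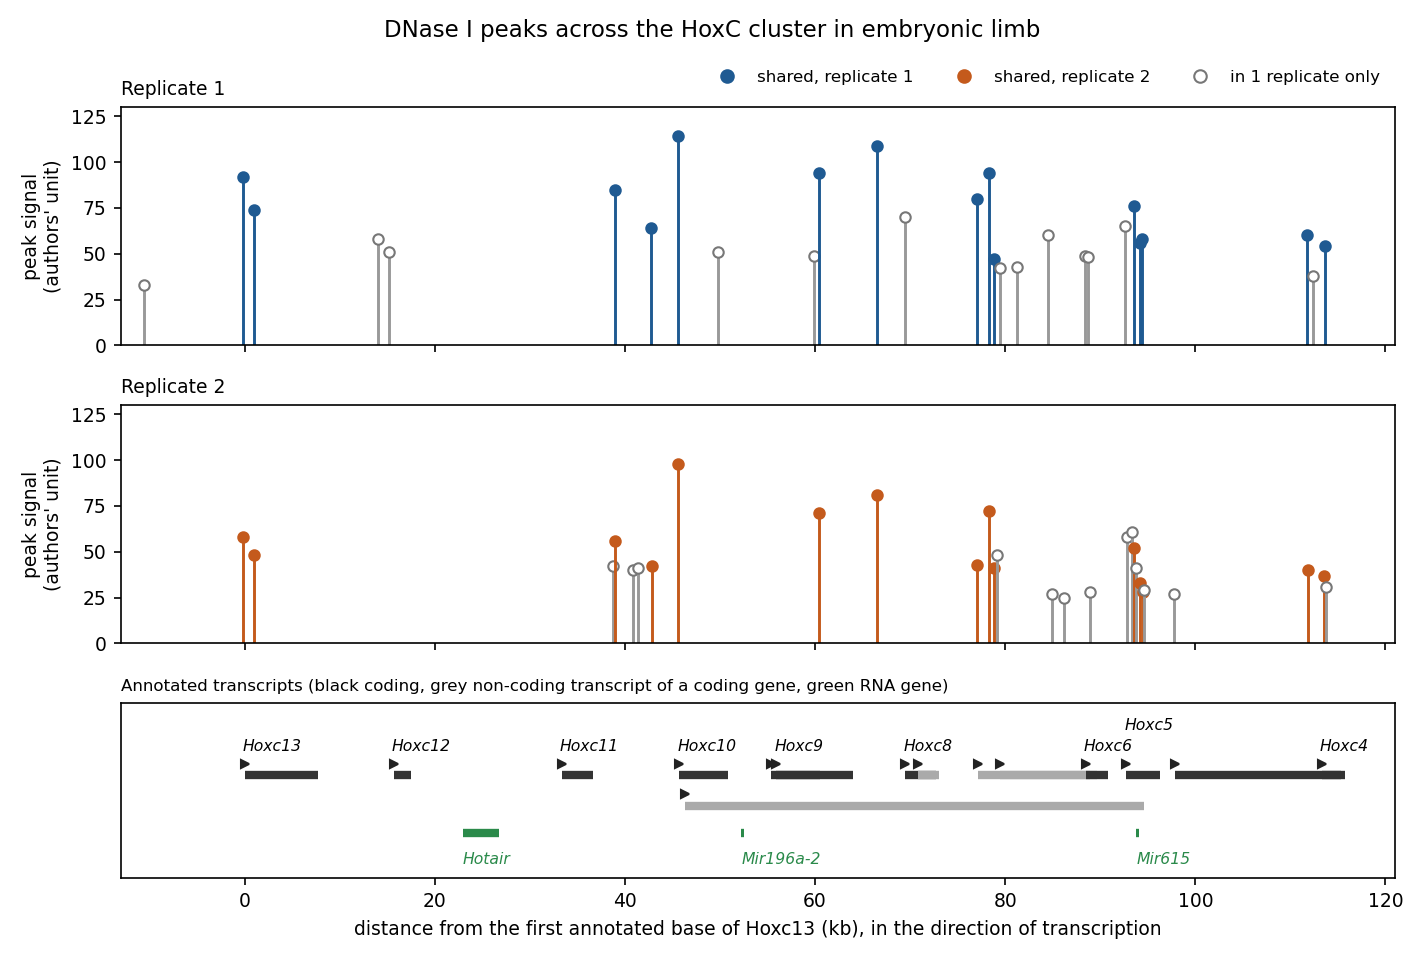
Peak signal (authors' unit, vertical axis) of every peak in the HoxC interval in replicate 1 (top) and replicate 2 (middle), against distance from the first annotated base of Hoxc13 in kb, with annotated transcripts underneath. Filled points are shared peaks and open points occur in 1 replicate only; the tallest in both is at the start of Hoxc10 (114 and 98), and a stretch of 23.43 kb from Hoxc12 past Hoxc11 has none.

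A shared peak lay at the start of 4 of the 9 genes (44.4%): Hoxc13, Hoxc10, Hoxc6 and Hoxc4. A start counted as open when the peak overlapped the 500 bp on either side of any of the gene's transcription start sites (TSSs). Over all 21938 protein-coding genes 14284 (65.1%) met that rule, so the count for HoxC is below the background. In replicate 1 alone 7 of 9 HoxC genes had a peak at a start, beside 69.4% of all genes, and in replicate 2 alone 5 of 9, beside 68.2%. By hotspots the counts were also 7 of 9 in replicate 1, beside 69.8% of all genes, and 5 of 9 in replicate 2, beside 68.4%. The genes without a start hotspot in replicate 1 were Hoxc9 and Hoxc11, and replicate 2 lacked one also at Hoxc8 and Hoxc12. The counts of the single replicates thus lay on either side of the background, and no test was made. In this mixed tissue, fewer cells with an open start and less opening per cell cannot be told apart, and since the depth of the libraries is unknown, a start without a peak is one where none was called.

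Hoxc13 (102921103 to 102928814), the most posterior gene, was open at its start in both libraries. Its peak had a signal of 92 in replicate 1 (percentile 90.8) and 58 in replicate 2 (85.6), centred 212 and 192 bp upstream of the TSS. Both libraries placed it high, inside hotspots at the ceiling of 100 that the deposited −log10 q-values reach. A further shared peak in the intron, 988 bp into the gene, had 74 and 48 (percentiles 83.0 and 77.8). That intron peak holds no match to any of the letters searched.

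Hoxc12 and Hoxc11, the next posterior genes, had no shared peak at the start. At Hoxc12 (102936757 to 102938609) replicate 1 had a peak of 51 (percentile 64.5) whose centre is 506 bp upstream, so that part of the peak lies within the window. In replicate 2 the nearest centre was 14646 bp away. Another peak of replicate 1 alone, of signal 58 (percentile 71.9), lies upstream of Hoxc12 at 102935076 to 102935225. At Hoxc11 (102954427 to 102957708) neither library had a peak, and the nearest centre was 5644 bp away in replicate 1 and 5404 bp in replicate 2. These genes share the longest stretch of the interval without a peak in either library, 23.43 kb from 102936326 to 102959755. Hotair, transcribed from the opposite strand between them (102944062 to 102947730), had its nearest peak centre 11.5 kb from its start in replicate 1 and 12.1 kb in replicate 2. The 4 small annotated RNA genes inside or near the Hotair span had no peak at their starts either, with nearest centres 9.11 to 14.5 kb away.

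Downstream of Hoxc11 the signal resumed in intergenic sequence. A shared peak 5644 bp past the Hoxc11 TSS had 85 in replicate 1 (percentile 88.2) and 56 in replicate 2 (84.3), at identical coordinates and in hotspots at the ceiling in both. It is the sequence printed above for the space between Hoxc11 and Hoxc10. Replicate 2 added 3 weaker peaks between 102959756 and 102962585, of 40 to 42, which replicate 1 lacked. A shared peak 2905 bp upstream of Hoxc10 (102963816 to 102963965) had 64 and 42 (percentiles 76.7 and 70.8).

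Hoxc10 (102966796 to 102971893), a gene known in hindlimb and lumbar levels, carried the highest peak of the interval in both replicates. Its signal was 114 in replicate 1 (percentile 95.8) and 98 in replicate 2 (97.0), centred 165 and 125 bp upstream of the TSS. It was 1 of 4 shared peaks whose percentile was higher in replicate 2. Hotspots at the ceiling covered it in both, 398 and 456 bp wide. In the last coding exon of Hoxc10 a peak of 51 (percentile 64.5, 102970836 to 102970985) appeared in replicate 1 alone.

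Hoxc9 and Hoxc8, which act in trunk and motor neuron identity, lacked a shared start peak but held strong regions nearby. At Hoxc9 (102976439 to 102985099) the nearest peak centre to either annotated start was 3999 bp away in replicate 1 and 4499 bp in replicate 2. That second distance belongs to a shared exon peak inside the gene (102981456 to 102981605), of 94 in replicate 1 and 71 in replicate 2 (percentiles 91.4 and 91.6). Its coordinates were identical in both lists. Between Hoxc9 and Hoxc8, 3016 bp upstream of the Hoxc8 TSS, the second strongest shared peak of the interval had 109 and 81 (percentiles 95.0 and 94.2). The only transcript that spans it is the long processed transcript Hoxc5-202, which begins at 102967443 near Hoxc10 and had no peak at its own start. At Hoxc8 (102990607 to 102994111) replicate 1 had a start peak of 70 (percentile 80.7), the strongest of its unshared peaks, centred 76 bp upstream. Replicate 2 had no peak or hotspot there, and its nearest peak was the region 3016 bp away.

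Hoxc6, Hoxc5 and Hoxc4 hold the anterior side of the cluster and 8 of the 15 shared peaks. Hoxc6 (102998257 to 103011881) has 3 annotated starts, and its shared start peak lies 126 bp upstream of the first, that of the processed transcript Hoxc6-202. That peak had 80 in replicate 1 (percentile 86.0) and 43 in replicate 2 (72.1). At the start of the coding transcript Hoxc6-201 (103009573) replicate 1 had peaks of 49 and 48 and replicate 2 one of 28, and none of these was shared. At Hoxc6-203 replicate 1 had 42 and replicate 2 had 48 (percentile 77.8, 103000136 to 103000285), 300 bp apart. With coding transcripts alone, a setting added after the values were seen, Hoxc6 has no shared start peak and the count of genes is 3 of 9. The share over all genes under that setting is not given. Inside the Hoxc6 introns 1 shared peak was among the strongest, with 94 and 72 (percentiles 91.4 and 91.9), and a neighbour 520 bp downstream had 47 and 41 (59.2 and 69.4). Replicate 1 alone had an intron peak of 60 (percentile 73.7) at 103005496 to 103005645.

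Hoxc5 was open over a broad stretch in both libraries although its start peaks did not count as shared. The peaks at the coding start (103013815) had 65 in replicate 1 (percentile 77.4) and 58 in replicate 2 (85.6). They lie 120 bp apart and overlap by 30 bp, and both sit in hotspots at the ceiling. With an overlap of 1 bp taken as enough, Hoxc5 gains 1 shared start peak. With windows of 1000 bp it gains 2, of which 1 is the intron peak described next and the other is the Hoxc10 start peak, reached from the distant start of Hoxc5-202. The hotspot over the gene was the widest of the interval, 1252 bp in replicate 2 (103013596 to 103014847, width percentile 98.8), and 4 peaks overlapped it. Replicate 1 had a pair of hotspots there, 644 and 531 bp wide. The shared intron peak inside this broad stretch had 76 and 52 (percentiles 84.1 and 81.4). Replicate 2 alone had its strongest unshared peak of the interval in the first coding exon, 61 (percentile 87.3, 103014336 to 103014485), within a hotspot of replicate 1. Both remaining shared peaks of Hoxc5 lie in the last exon: 1 in the homeobox (56 and 33, percentiles 70.0 and 54.9) and 1 just after it (103015436 to 103015585, 58 and 28). The latter had the largest change of rank of the 15, from percentile 71.9 in replicate 1 to 41.7 in replicate 2.

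Hoxc4 (103018934 to 103036852), the most anterior gene, had the weakest shared start peak of the 4. It had 54 in replicate 1 (percentile 67.9) and 37 in replicate 2 (63.0), centred 296 bp downstream of the inner start of transcript Hoxc4-201. At the outer start of Hoxc4-202 only replicate 2 had a peak, of 27 (percentile 38.7), so with the outermost start alone Hoxc4 has none that is shared. An intron peak 1504 bp upstream of the inner start had 60 and 40 (percentiles 73.7 and 67.9). The long first part of Hoxc4, 13.93 kb from 103018886 to 103032815, had no peak in either library.

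**Figure D2:**
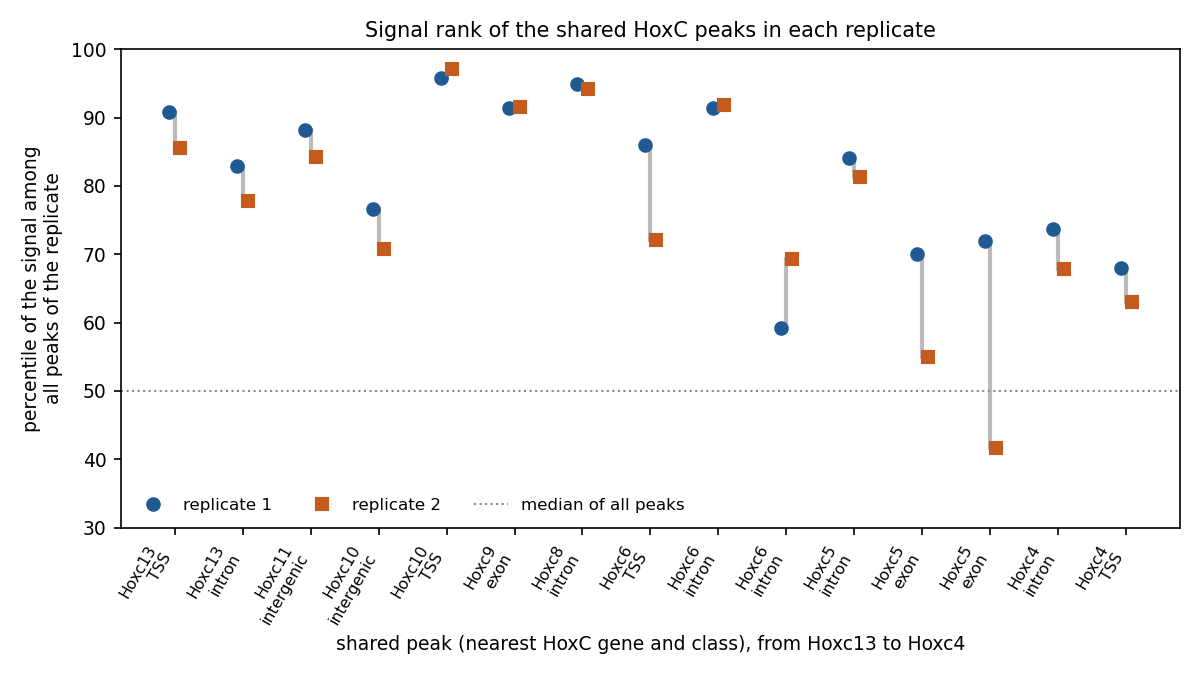
Percentile of the signal among all peaks of the same replicate (vertical axis) for the 15 shared HoxC peaks in genomic order, with circles for replicate 1 and squares for replicate 2. The Hoxc10 start ranks highest in both (95.8 and 97.0), and the last Hoxc5 exon peak has the widest gap (71.9 against 41.7).

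The microRNA loci differed in their surroundings. Mir615, in the Hoxc5 intron (103014910 to 103015001), had 2 peaks of replicate 1 and 4 of replicate 2 within 500 bp of its start, of which 2 were shared. These are the peaks of Hoxc5 and its homeobox exon described above, so the values do not belong to Mir615 alone. Among them was a replicate 2 peak of 41 (percentile 69.4, 103014796 to 103014945) that reaches into the hairpin and ends inside the miR-615-5p sequence printed above. Mir196a-2 (102973350 to 102973434), between Hoxc10 and Hoxc9, had none, with the nearest centre 2.44 kb away in replicate 1 and 6.68 kb in replicate 2. The 5p arm of miR-196a is known for targeting Hox messages, among them that of Hoxb8.

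Sharing between the replicates was 53.6% of the interval's peaks in each list. Over the whole lists 127632 of 208674 peaks of replicate 1 (61.2%) and 127727 of 196593 of replicate 2 (65%) were shared. Of the 13 unshared peaks of replicate 1, 12 lay outside every hotspot of replicate 2. Of the 13 of replicate 2, 8 lay outside every hotspot of replicate 1 and 5 overlapped one at least in part, mostly at Hoxc5. By class, the shared peaks comprised 4 at starts, 3 in exons, 6 in introns and 2 between genes. The unshared ones comprised 6, 2, 3 and 2 in replicate 1 and 5, 3, 2 and 3 in replicate 2. The shares of these classes, and of unshared peaks outside hotspots, over the whole lists are not given. The counts therefore do not show whether HoxC differs from other regions. The centres of shared peaks lay 0 to 40 bp apart, and 4 had identical coordinates.

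Hotspots covered 5.10% of the interval in replicate 1 and 4.56% in replicate 2 (mean 4.83%, SD 0.383 points, n = 2). Over the autosomes, X and Y they covered 2.25% and 1.88%, so both HoxC values were above both genome values. Of the interval's hotspots 9 of 28 (32.1%) and 7 of 24 (29.2%) had the ceiling value, beside 33.0% and 28.8% of all hotspots, which is near the background. The ceiling hotspots lay at the starts of Hoxc13, Hoxc10 and Hoxc5, at both strong regions around Hoxc9, in the Hoxc6 intron and downstream of Hoxc11. Replicate 1 had another at the Hoxc6-202 start, where replicate 2 had 4.96. Of the 9 in replicate 1, 8 overlapped one at the ceiling in replicate 2. Counting ceiling hotspots alone, the mean coverage was 2.57%. The genome values above count all hotspots, and none is given for ceiling hotspots alone, so 2.57% is not to be set against them.

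The other Hox clusters give the same measures in the same libraries, set side by side here without a test of the difference. A shared start peak was present at 11 of 11 HoxA genes, 9 of 9 HoxD genes, 7 of 10 HoxB genes and 4 of 9 HoxC genes. Hoxd3 and Hoxd4, annotated from 74711927 and 74711929, had equal start values, 75 and 55, so the same peak can count for both. Genes also differ in their number of annotated starts, and more starts give more windows in which a peak can count. Between the outermost ends of its genes HoxC (115.75 kb) had 14 shared peaks, or 12.1 per 100 kb. HoxA had 38.9 per 100 kb, HoxD 16.5 and HoxB 9.20, so HoxC stood between HoxB and HoxD. Hotspots covered 5.74% and 5.13% of the HoxC gene span in replicates 1 and 2, 20.9% and 21.2% of HoxA, 6.83% and 3.98% of HoxD and 5.51% and 3.33% of HoxB. The HoxC, HoxB and HoxD ranges over the replicates overlap, while HoxA lies apart from all of them. The portion of peaks that were shared was 53.8% and 51.9% in HoxC and ran from 37.2% for replicate 1 in HoxB to 84.2% for replicate 2 in HoxD.

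Paralogues, the genes of equal number in different clusters, show which HoxC starts differed from their counterparts. In groups 4, 10 and 13 each annotated member had a shared start peak: 4 of 4, 3 of 3 and 4 of 4. For Hoxd4 it is the peak that can also count for Hoxd3. Hoxc11 lacked one, while the start signal was 96 (replicate 1) and 73 (replicate 2) at Hoxa11 and 85 and 65 at Hoxd11. Hoxc12 lacked one while Hoxd12 had 88 and 64. Hoxc9 was the 1 member of 4 without one in its group, beside Hoxa9 with 128 and 107, Hoxd9 with 87 and 66 and Hoxb9 with 52 and 48. Hoxc5 also lacked a shared start peak, with unshared ones of 65 and 58, beside Hoxa5 with 95 and 70 and Hoxb5 with 108 and 73. In group 6 Hoxc6 and Hoxa6 had a shared start peak and Hoxb6 did not. In group 8 both Hoxc8 and Hoxb8 had a start peak in replicate 1 only, of 70 and 50, while Hoxd8 had 79 and 66. Hoxc10 had 114 and 98, beside 114 and 78 at Hoxd10 and 126 and 97 at Hoxa10, so the HoxC gene lies within the range of its paralogues in replicate 1 and slightly above it in replicate 2. Hoxc13 had 92 and 58, lower in both libraries than Hoxd13 with 115 and 83 and Hoxa13 with 118 and 74. It was above Hoxb13, which had 67 and 42, in both.

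**Figure D3:**
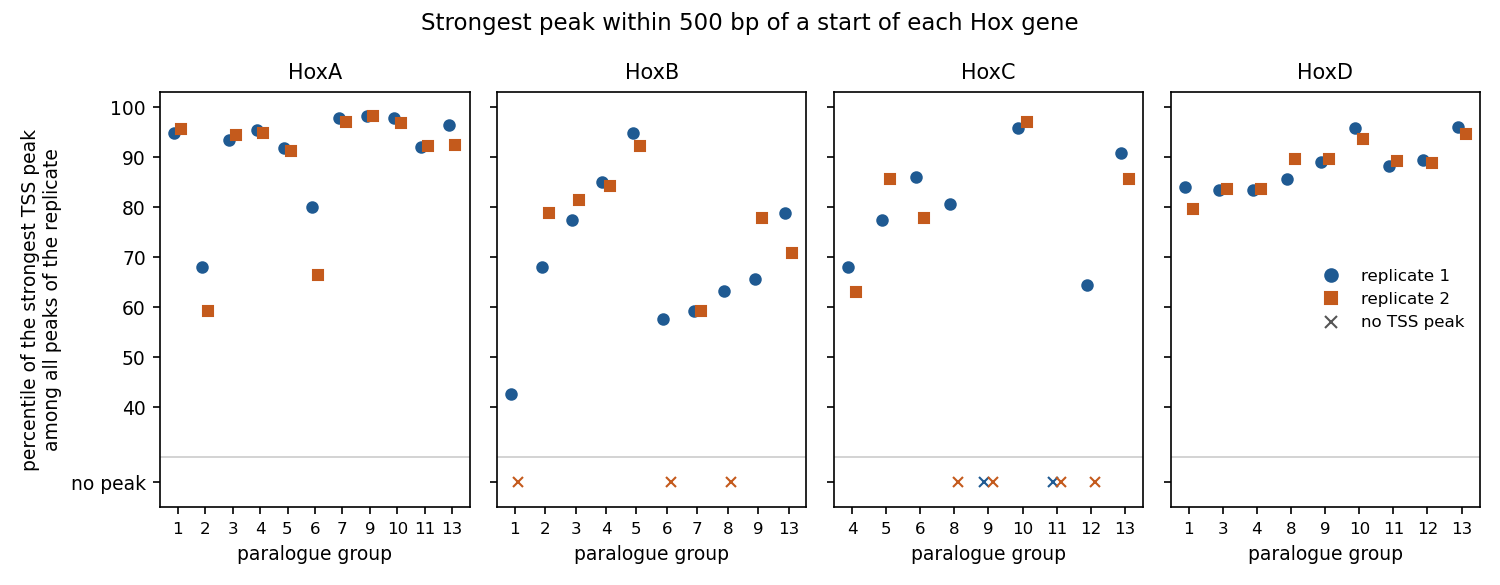
Percentile of the strongest start peak of each Hox gene among all peaks of the replicate (vertical axis), by paralogue group within each cluster, with circles for replicate 1, squares for replicate 2 and crosses where no peak lay within 500 bp of a start. HoxC has crosses in both replicates at groups 9 and 11 and in replicate 2 at groups 8 and 12, while HoxA and HoxD have none.

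The CpG content of the starts, a sequence property that accompanies open promoters in general, did not separate the HoxC genes with and without a shared peak. It is given as the ratio of observed to expected CpG dinucleotides over the 500 bp on either side of the start, with the highest value where a gene has several. The HoxC values ran from 0.412 at Hoxc4 to 0.891 at Hoxc12 (median 0.651), beside 0.627 over protein-coding genes and medians of 0.735 in HoxA, 0.686 in HoxB and 0.802 in HoxD. Of the genes without a shared start peak, Hoxc12 and Hoxc11 (0.752) had the highest HoxC values, Hoxc8 had 0.678 and Hoxc9 0.651, and Hoxc5 with 0.565 lay below the median of all genes. Hoxc13 had 0.704 and Hoxc10 0.594, and Hoxc4 and Hoxc6 (0.536), both with a shared start peak, had the lowest. Genes with and without a shared peak therefore overlapped along this scale.

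**Figure D4:**
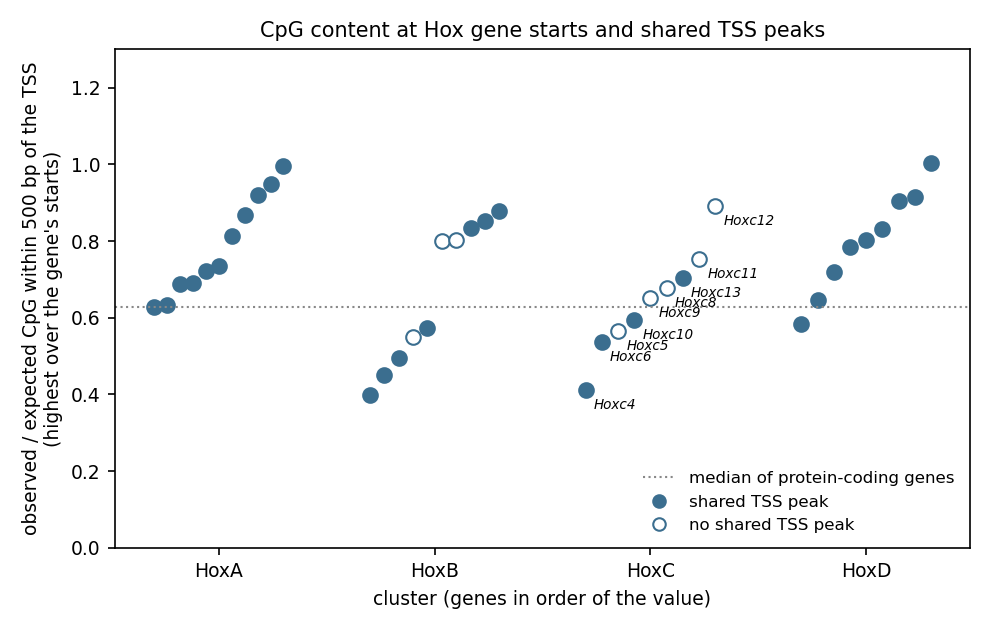
Observed over expected CpG within 500 bp of the start (vertical axis, highest over the gene's starts) for each Hox gene in the 4 clusters, in order of the value within a cluster. Filled points have a shared start peak and open points do not; Hoxc12 (0.891) and Hoxc11 (0.752) are the highest HoxC genes and both are open points, and the dotted line is the median of protein-coding genes (0.627).

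The shared HoxC peaks were richer in CpG than shared peaks at large. Their GC content had a median of 54.7% (40.7% to 72.0%), beside 50.7% over the 127632 shared peaks of both whole lists. Their observed to expected CpG had a median of 0.824 (0.341 to 1.01), beside 0.296. The lowest of the 15, 0.341 in the region between Hoxc11 and Hoxc10, was above the median of all shared peaks. Peaks at starts and in a gene-dense cluster differ from most peaks in position, and no match for position was made.

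Short sequence matches were counted on both strands in the 15 shared peaks and in all shared peaks. A match is a description of the letters and does not show that a factor binds. CCAAT, the letters read by NF-Y, occurred in 7 of 15 HoxC peaks (46.7%), beside 20.1% of all shared peaks. Among the printed sequences it lies in the Hoxc13 start, the Hoxc6-202 start, the Hoxc6 intron and the region between Hoxc9 and Hoxc8, there mostly as its complement ATTGG. The SP/KLF letters GGGCGG occurred in 3 of 15 (20%), beside 13.6%, among them a pair of overlapping matches at the Hoxc13 start. TATAAA occurred in 3 of 15, beside 7.37%, and in each case outside the start windows of the protein-coding genes. Of the 3, the Hoxc5 intron peak, lies within 500 bp of the start of Mir615.

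Letters of Hox-type sites occurred in 0 to 2 of the 15 peaks each. For each of the 4 forms 1 match already exceeds the share over all shared peaks, so no excess is read from 1 peak. TCGTAAA, a form read by posterior Hox proteins, occurred in 2 of 15 peaks (13.3%), beside 0.508% of all shared peaks: once at the Hoxc6-202 start and in 2 copies on opposite strands in the Hoxc5 intron. TGATTNAT, a joint Pbx and Hox site, occurred in 1 peak, in the Hoxc4 intron, beside 2.15%, and TAATTA in 1, the Hoxc9 exon, beside 2.40%. CAATAAA, another posterior form, occurred in 0 of 15, beside 2.94%, and in 2 with 100 bp added on each side, beside 6.91%. The Meis letters TGACAG occurred in 0, beside 10.8%. The E-box CAGCTG occurred in 2 of 15, beside 18.1%, and TGTGGT (RUNX) in 2, beside 11.1%, and in 5 with 100 bp added, beside 22.4%. The AP-1 letters TGANTCA, the SOX letters AACAAT and those of GATA factors, spelt AGATAA, occurred in 1 peak each, beside 5.78%, 5.90% and 4.16%. TAATCC (Pitx), GGTGTGA (T-box), the E-box CATCTG, the TCF/LEF letters CTTTGAT and those of GLI, TGGGTGG, occurred in none, beside 1.79% to 17.0% of all shared peaks. With 15 peaks, 1 peak is 6.67%.

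CTCF is an architectural protein known to bind between Hox genes and divide clusters into domains. Its consensus, searched as a single fixed pattern, had no exact match in the 15 peaks, beside 7.19% of all shared peaks. Sites that differ from that pattern are missed, so the count does not show that CTCF sites are absent. After the sequences were seen, mismatches were allowed: with 1 mismatch the consensus matched 1 of 15, beside 21.1%, and with 2 mismatches 7 of 15 (46.7%), beside 55.7%. The region between Hoxc9 and Hoxc8 has 2 mismatches to the consensus, at bases 78 to 89 of the sequence printed above.

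Most of the listed cofactor and regulator genes had a shared peak at 1 or more of their starts. Of the 9 TALE genes, whose proteins (Meis, Pbx and Pknox) bind DNA together with Hox proteins, 9 had a shared start peak, with 5 each at Meis2 and Pbx3 and 3 at Pknox1. The strongest start peak of Pknox1 was high in both libraries, 139 and 123. Of 19 genes that regulate Hox clusters, 16 had one, among them the Polycomb gene Jarid2 with 5 and Ezh2, Eed, Bmi1, Pcgf2 and Ctcf with 3 each. The 3 without were Cdx1, Cdx2 and Cdx4, caudal-type activators of Hox genes in the early trunk, of which Cdx4 alone had a peak, of 24, in replicate 1. The median over all genes was 1 shared start peak, beside 2 in either list. These counts can rise with the number of annotated starts of a gene, which was not matched. The background for any shared start peak is the 65.1% of all genes given above.

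The tissue label was checked on marker genes. Of 10 limb markers 10 had a shared start peak, beside 65.1% of all protein-coding genes. The strongest start peak had 122 and 102 at Sox9, 104 and 84 at the hindlimb gene Pitx1 and 59 and 46 at the forelimb gene Tbx5. Trp63, with 29 and 42, had the lowest of the 10 in both libraries. Of 6 neuron markers, chosen since HoxC genes also act in spinal cord, 2 had one, Isl1 with 117 and 87 and Snap25 with 65 and 48. Isl1 is also known in the hindlimb field. Mnx1 had no peak in either library, and Neurod1, Gad1 and Olig2 had 1 each in 1 library. Of Alb, Myh6 and Sftpc, markers of liver, heart and lung, none had a shared start peak. Alb and Myh6 had a start peak in replicate 1 alone, of 19 and 30. What cells other than limb cells add to the HoxC signals was not tested.

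The cluster's borders were set by position. The nearest protein-coding genes on either side are Calcoco1, 198.9 kb before Hoxc13, and Smug1, 116.4 kb after Hoxc4. The space before Hoxc13 held 25 peaks in replicate 1 and 40 in replicate 2, of which 22 were shared. The Hoxc13 start peak, centred upstream of the gene, is counted both there and in the interval. So is the replicate 1 peak described below. The space after Hoxc4 held 22 and 25, of which 13 were shared. In the interval itself 1 peak lay before Hoxc13 and outside its start window, of signal 33 in replicate 1 (102910476 to 102910625), and it was the weakest of that library's 28.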

How the data were processed

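DNase-seq regions were analysed in 2 limb libraries of 1 group. Per the labels, the deposited regions are on mm10; no aligner or peak caller is named there, and neither is given in the sources used here. The authors deposited peaks with a signal, a whole number whose scaling is not given, and hotspots with a −log10 q-value, from −log10 of 0.05 to a ceiling of 100. Both were called in each library separately. Read counts were not used, so depth is unknown and no interval from counting is given.

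Peaks and hotspots on the autosomes, X and Y were read with Python 3.11.15 and numpy 2.4.6, ranks were correlated with scipy 1.17.1 and plots drawn with matplotlib 3.10.9. A peak was shared when the other replicate's peaks overlapped at least 50% of its length, and was placed at the coordinates of replicate 1. Percentiles are ranks within a list, with ties at their middle. Starts came from GENCODE M21, with windows of 500 bp. Sequences came from RefSeq GRCm38.p6, and 19 motifs were searched. The interval arithmetic was tested on simulated intervals.

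Named were all 9 HoxC genes, the microRNAs, each shared peak, the 5 unshared peaks of highest percentile per replicate with ties, the other Hox genes by counts, and of the cofactor and regulator lists the genes without a shared start peak and those with the most. Sequences of peaks with more than 30 bases of non-coding exon are not printed. The members and lists were chosen with earlier results of these data known. With 1 group, no test was made. Alternatives were an overlap of 1 bp, the 50000 strongest peaks, each replicate alone, replicate 2 coordinates, hotspots in place of peaks, windows of 250 and 1000 bp, the outermost start, the gene span, ceiling hotspots and 100 bp added around peaks. Coding starts, peak centres and CTCF mismatches were added after seeing the data. Some items, among them 1 gene and some sequences, are not reported here.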

Additional observations from a re-analysis of the deposited data

How the results depend on the processing

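No paired analysis was possible because there is 1 group of 2 replicates and no test. The number of shared peaks in the interval was 15, and 14 to 16 with an overlap of 1 bp, replicate 2 coordinates, hotspots or the span of the genes alone. It was 8 among the 50000 strongest peaks of each list, and each replicate alone, without replicate 1 or without replicate 2, has 28 peaks, which need no partner. HoxC genes with a shared start peak numbered 4, and 3 to 5 under the other windows, starts, overlaps and hotspots tried. Among the 50000 strongest peaks they were 2. Leaving out replicate 1 gave 5, beside 68.2% of all genes, and leaving out replicate 2 gave 7, beside 69.4%. For the other settings no share over all genes is given, so those counts are not to be set against 65.1%. Hoxc10 and Hoxc13 kept a shared start peak under the 6 window, start and overlap settings tried gene by gene, Hoxc4 lost it with the outermost start and Hoxc6 with coding starts. The portion shared, 53.6%, was 57.1% with an overlap of 1 bp and 66.7% among the 50000 strongest. The portion over the whole lists is not given under these settings. Coverage by hotspots, 4.83%, was 2.57% with ceiling hotspots alone and 4.56% to 5.10% with 1 replicate left out. No genome value for ceiling hotspots alone stands beside the 2.57%. With 100 bp added on each side, matches rose from 7 to 11 of 15 peaks for CCAAT (37.7% of all shared peaks), from 3 to 8 for GGGCGG (20%) and from 2 to 5 for TGTGGT (22.4%). They went from 0 to 2 for CAATAAA (6.91%), from 1 to 2 for TAATTA (7.23%) and for the SOX letters (14.8%), and from 0 to 1 for the T-box (4.40%) and GLI letters (8.89%). Of the interval's peaks, 12 of 28 in replicate 1 and 11 of 28 in replicate 2 are among the 50000 strongest.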
